A study of Mus musculus with 6 samples.

Results

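The report covers 10 genes of hepcidin control and iron handling in mouse liver, of 32212 rows in the deposited table. They were taken by symbol: the hepcidins *Hamp* and *Hamp2*, the BMP6 route with *Bmp6*, *Id1* and *Smad7*, and the iron import, storage and export genes *Tfrc*, *Tfr2*, *Trf*, *Fth1* and *Slc40a1*. Each symbol matched 1 row, and all 10 rows passed the filter on low counts. Livers came from male C57BL/6 mice aged 2 yr, 3 wild type (WT) and 3 CgA-KO, which lack chromogranin A (CgA), the prohormone that *Chga* encodes. All were fed normal chow with 13.5% of calories from fat and poly(A)-selected RNA was sequenced as 1 library per mouse. No other allele or agent is given, nor the tissues in which the CgA-KO allele acts. The study compared the genotypes to look for liver genes that go with blood pressure and insulin sensitivity in ageing mice.

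The libraries held 10558616 to 31087453 counts. Levels are CPM, counts relative to the library total after correction with TMM factors, which offset differences in RNA composition. Both groups are given as mean ± SD over 3 livers, and changes as the log2 fold change of CgA-KO over WT with its SE. A gene was called when edgeR's quasi-likelihood test gave it an adjusted p under 0.05 over the 13867 genes tested. Of these, 12.4% were called, 8.60% higher and 3.84% lower in CgA-KO livers, and in 33.6% the genotypes did not overlap. The split depends on scaling: 1193 were called higher and 533 lower with TMM factors, against 1293 and 200 with library size alone. *Chga* had 0 counts in every library, so it could not check the labels. All 15 hepatocyte markers passed the filter and together reached 55678 to 108825 CPM over the libraries. None of them was called, but 12 of 15 had negative log2 fold changes, with a median of -0.17. That sign depends on scaling and libraries. With library size alone 3 of 15 were negative and the median was 0.11, though 9 lay below the median of all genes, then 0.26. Without 1 library the median ran from -0.40 to 0.01. The markers of other cells did move: 12 of 14 Kupffer cell markers were called higher, and their summed level was 171 to 371 CPM in WT against 1523 to 2142 CPM in CgA-KO livers, with none at 0. The count was 9, 8, 10 and 10 without WT replicate 2, WT replicate 3, CgA-KO replicate 1 and CgA-KO replicate 2. Of 15 stellate cell markers, 6 were called higher, among them *Rgs5*, and their summed level was 325 to 396 CPM in WT against 550 to 825 CPM in CgA-KO livers, with none at 0. That count was 3, 1, 2 and 3 without the same libraries. None of 6 bile duct markers tested was called. Fewer cells of a type and less RNA per cell cannot be told apart in such bulk samples.

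Hepcidin is the peptide hormone that hepatocytes release to lower iron in the blood. It binds ferroportin, the iron exporter encoded by *Slc40a1*, and has it degraded, so that iron stays inside macrophages, hepatocytes and gut cells. Hepatocyte *Hamp* is switched on by BMP6 and BMP2, which liver endothelial cells secrete, BMP6 more so when iron is high. Both signal through SMAD1, SMAD5 and SMAD8 acting with SMAD4. *Id1* and *Smad7* are further targets of that signal. Inflammation raises *Hamp* by a separate route, from interleukin 6 through STAT3. Cells also adjust iron after transcription: when iron is low, iron regulatory proteins bind hairpins called iron-responsive elements (IREs), which blocks translation of ferritin and ferroportin mRNA and protects the mRNA of the transferrin receptor *Tfrc* from decay.

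These control points can be read in the sequences. The mouse has a pair of hepcidin genes side by side on chromosome 7 of GRCm38, *Hamp* at chr7:30942368-30944032 and *Hamp2* at chr7:30922372-30924681, both on the minus strand. *Hamp* encodes the iron-regulating hormone, and *Hamp2* is its near copy. Stretches of 120 bases from their promoters are shown because BMP and STAT3 signals reach *Hamp* there. They are RefSeq sequences of GRCm38.p6, 5′ to 3′ on the minus strand, from chr7:30944067-30944186 for *Hamp* and chr7:30924216-30924335 for *Hamp2*. Both lie upstream of RefSeq's start sites. By the gene coordinates above, which are from GENCODE, the *Hamp2* stretch lies inside the gene. Capitals mark GGCGCC, the core letters of a BMP response element, and TTCNNNGAA, the letters of a STAT site, each of which reads the same on both strands.

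Hamp: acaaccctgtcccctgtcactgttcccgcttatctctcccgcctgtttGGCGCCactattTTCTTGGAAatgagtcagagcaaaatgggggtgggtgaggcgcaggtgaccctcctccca
Hamp2: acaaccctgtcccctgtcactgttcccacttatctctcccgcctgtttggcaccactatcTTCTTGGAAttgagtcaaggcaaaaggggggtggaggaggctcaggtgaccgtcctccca

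The stretches were 90.8% identical, with 11 differing bases. One difference, G52A counted from the first base shown, *Hamp* first, lies inside GGCGCC, so that *Hamp2* lacks those letters there. GGCGCC occurred in the 250 bases before the start site in 9.59% of 32851 mouse promoters, and TTCNNNGAA in 7.02%. Of the 10 genes, 6 had promoters in the RefSeq table, 10 in all. Among these, GGCGCC was found in *Hamp* and in 1 *Tfrc* promoter, and TTCNNNGAA in both hepcidin genes. A match is a description of letters, not of a bound site.

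Hairpins were searched in the UTRs of GENCODE M21 mRNAs (GRCm38) as C, 5 bases, the loop letters CAGTGN and 5 bases that pair with the first 5, G-T pairs included. Such a match was found in 0.731% of 21877 protein-coding genes. Of the 10 genes, 3 had a match that was kept. Any match in *Smad7* was left out beforehand, so that gene is not counted either way. The share over all genes was made without this exclusion, so it is no background for the 3 genes. Their matches are shown with flanks, since the set sorts the genes by how iron acts on their mRNA. Capitals mark the bulged C and the loop. Those of *Fth1* (chr19:9982732-9982760, plus strand) and *Slc40a1* (chr1:45925465-45925493, minus strand) lie in the 5′ UTR. *Tfrc* held 4 matches in its 3′ UTR on the plus strand, and the first (chr16:32631219-32631247) and the last (chr16:32631710-32631738) from the 5′ end are shown.

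Fth1: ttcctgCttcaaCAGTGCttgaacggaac
Slc40a1: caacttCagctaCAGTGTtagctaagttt
Tfrc first: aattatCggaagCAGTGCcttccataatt
Tfrc last: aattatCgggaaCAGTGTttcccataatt

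Of the 10 genes, 1 was called, *Id1*, which was higher in CgA-KO livers. This is 1 of 10 where 8.60% of all genes tested were called higher, so the share of calls is near the background. None was called lower. In 4 genes the genotypes did not overlap, *Id1*, *Tfrc* and *Slc40a1* with CgA-KO above WT and *Bmp6* with CgA-KO below, where 33.6% of all genes did so. For each of these an exact two-sided permutation test gave p = 0.1, the smallest that 3 livers against 3 can give. The median log2 fold change over the 10 genes was 0.22, against -0.01 over all genes tested.

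**Figure D1:**
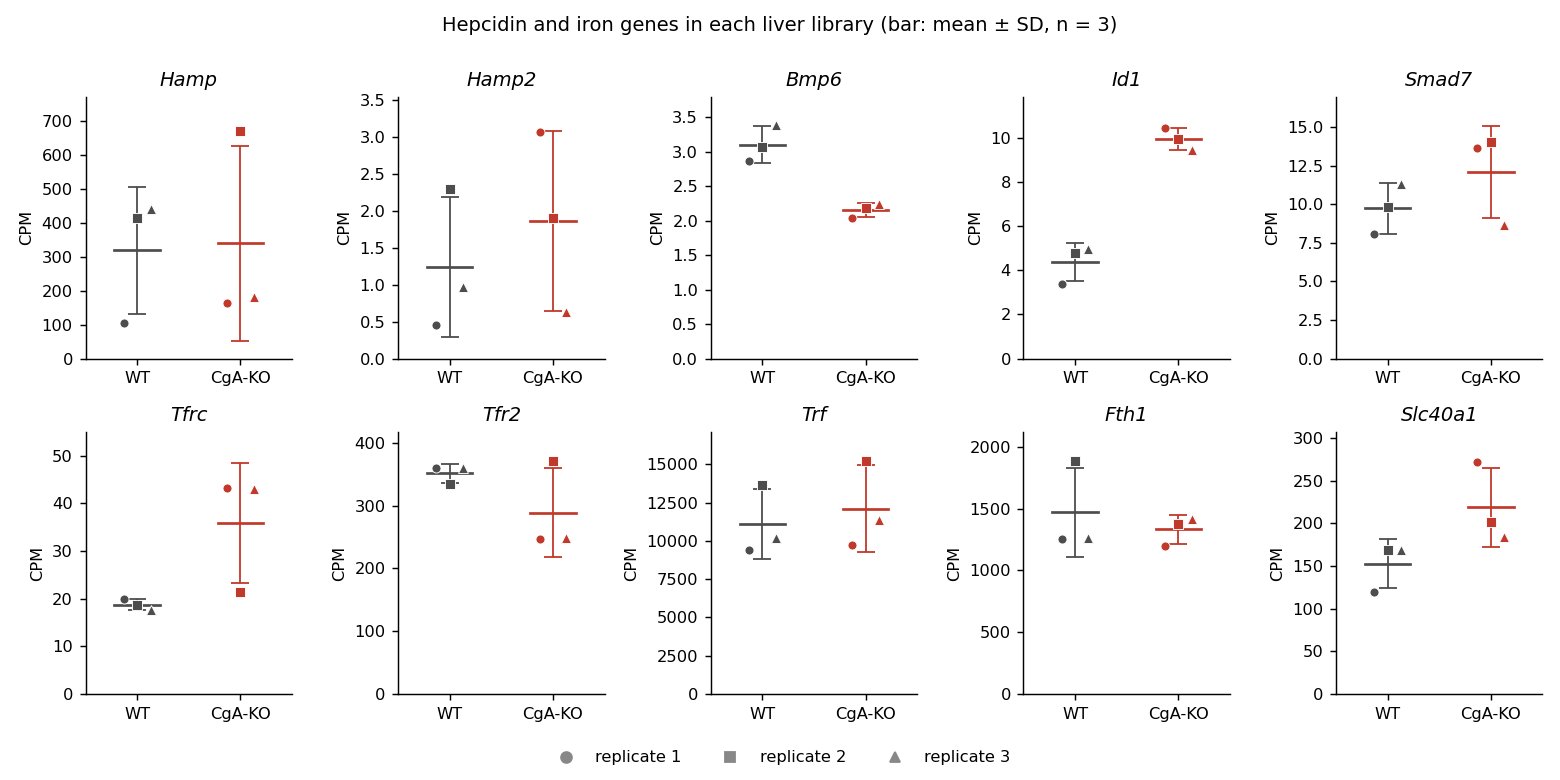
CPM (vertical axes, from 0) of the 10 genes in 3 WT (grey) and 3 CgA-KO (red) livers, with replicates by symbol and bars for the mean ± SD. *Id1* separates the genotypes, at 3.40 to 4.95 CPM in WT and 9.45 to 10.4 CPM in CgA-KO livers, while *Hamp* spreads from 104 to 670 CPM without following genotype.

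Per kilobase of mRNA, the scale on which genes can be compared, the WT means ran from *Trf* at 4319 ± 883 CPM per kb down to *Bmp6* at 0.864 ± 0.0733. *Fth1* (984 ± 242) and *Hamp* (778 ± 456) followed *Trf*, and their WT ranges overlapped. *Tfr2* (114 ± 4.98) and *Slc40a1* (45.3 ± 8.43) came next, each apart from its neighbours. *Id1* (4.70 ± 0.916), *Tfrc* (3.84 ± 0.227), *Hamp2* (2.84 ± 2.18) and *Smad7* (2.28 ± 0.385) formed a low set in which *Hamp2* overlapped each of the others and *Id1* overlapped *Tfrc*. In CgA-KO livers the order of the means was the same. Lengths are those of the longest principal mRNA of each gene, and libraries were counted over all isoforms.

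*Hamp* showed no difference between genotypes that this design could resolve. WT replicates 1, 2 and 3 had 104, 414 and 440 CPM, and CgA-KO replicates 1, 2 and 3 had 165, 670 and 182 CPM. Each genotype thus held both low and high livers, and the groups overlapped. The means were 319 ± 187 and 339 ± 287 CPM, a log2 fold change of 0.09 (SE 0.641, adjusted p = 0.947 by edgeR's quasi-likelihood test). The 95% interval of that change, -1.36 to 1.54, leaves room for a change in either direction. The direction rested on single livers: the log2 fold change was -0.84 without CgA-KO replicate 2, -0.30 without WT replicate 1 and at most 0.45 without any other library. Within a genotype the highest liver exceeded the lowest 4.25-fold in WT and 4.07-fold in CgA-KO, more than for any other of the 10 genes but *Hamp2*.

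*Hamp2* lay far below *Hamp*. It had 5, 54 and 23 counts in WT and 66, 60 and 14 counts in CgA-KO replicates 1, 2 and 3, or 0.448, 2.30 and 0.973 CPM against 3.06, 1.90 and 0.627 CPM. The groups overlapped, and the log2 fold change was 0.54 (SE 0.679, adjusted p = 0.648 by edgeR's quasi-likelihood test). Of the counts of both hepcidins, *Hamp2* took 0.430%, 0.552% and 0.221% in WT replicates 1, 2 and 3, and 1.83%, 0.283% and 0.343% in CgA-KO replicates 1, 2 and 3. CgA-KO replicate 1 stood above the others, with an exact 95% binomial interval of 1.42% to 2.32%, while the intervals of the other libraries reached at most 1.00%; such intervals cover counting error only. The mRNAs of the pair were 94.6% identical over 410 aligned bases, so reads may be split between them, and the *Hamp2* values are uncertain for that reason.

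The genes whose levels ran most like *Hamp* over the 6 libraries, by the root mean square difference of centred log2 CPM, were *Map2k6* (0.43), *Smim22* (0.49), *Chac1* (0.49), *Adgrf1* (0.50) and *Igfbp2* (0.52). None of these was called between genotypes. The measure includes the genotype difference, so a gene with a much larger change than *Hamp* could not be among them. The likeness measure has no test, and the points share library and depth.

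The BMP route is given from ligand to targets. *Bmp6*, at chr13:38345107-38500302 on the plus strand, encodes the iron-sensing ligand from liver endothelium. It was at 2.86, 3.06 and 3.39 CPM in WT replicates 1, 2 and 3, and at 2.04, 2.19 and 2.24 CPM in CgA-KO. All CgA-KO livers were therefore lower, but with 32 to 80 counts per library the change of -0.53 on the log2 scale (SE 0.299, adjusted p = 0.280 by edgeR's quasi-likelihood test) was not called, and its 95% interval ran from -1.20 to 0.15. Of 14 markers of liver sinusoidal endothelium, *Lyve1* (log2 fold change 2.81, adjusted p = 0.00304) and *Cdh5* (1.92, adjusted p = 0.0153), the junction protein VE-cadherin, rose, and *Clec4g* (-1.11, adjusted p = 0.0135) fell. Their summed level was 256 to 310 CPM in WT and 256 to 363 CPM in CgA-KO livers, with none at 0. *Cdh5* lost its call without WT replicate 2, WT replicate 3, CgA-KO replicate 1 or CgA-KO replicate 2, with adjusted p of 0.0544 to 0.0954, and *Clec4g* with library size alone (log2 fold change -0.84, adjusted p = 0.0641). The part of endothelial cells in the *Bmp6* values was not tested.

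*Id1*, at chr2:152736251-152737410 on the plus strand, encodes an inhibitor of basic helix-loop-helix factors and is a standard readout of BMP signalling. It was at 3.40, 4.80 and 4.95 CPM in WT replicates 1, 2 and 3, and at 10.4, 9.98 and 9.45 CPM in CgA-KO. All 3 CgA-KO livers were above all WT livers, and they differed little among themselves. *Id1* was 2.25-fold higher, with a log2 fold change of 1.17 (SE 0.237, 95% interval 0.63 to 1.71, adjusted p = 0.0165 by edgeR's quasi-likelihood test). The size held at 1.06 to 1.47 over 15 alternatives, but the call was lost without WT replicate 3 (adjusted p = 0.0646) or CgA-KO replicate 1 (adjusted p = 0.0592). *Smad7*, which encodes the feedback inhibitor of SMAD signalling, was at 8.06, 9.86 and 11.3 CPM in WT and 13.6, 14.0 and 8.69 CPM in CgA-KO replicates 1, 2 and 3. These overlapped, with a log2 fold change of 0.31 (adjusted p = 0.455).

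*Id1* thus separated the genotypes and *Hamp* did not. The ratio of *Hamp* to *Id1* in CPM was 30.4, 86.1 and 88.8 in WT replicates 1, 2 and 3, and 15.8, 67.1 and 19.3 in CgA-KO, where the high value is the liver with the most *Hamp*. The ratio overlapped between genotypes, and no test was made of it.

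**Figure D2:**
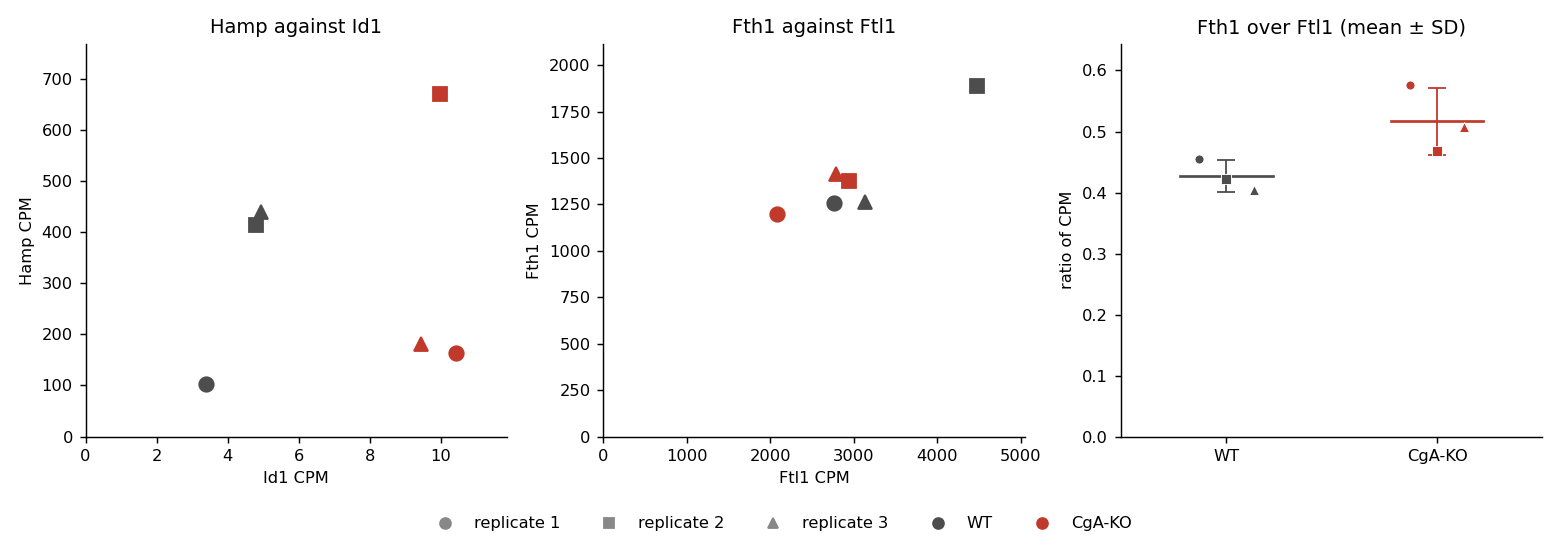
Left, *Hamp* against *Id1* CPM; middle, *Fth1* against *Ftl1* CPM; right, the ratio of *Fth1* to *Ftl1* CPM with the mean ± SD; each point is 1 of 3 WT (grey) or 3 CgA-KO (red) livers. On the left the genotypes part along *Id1* and not along *Hamp*, and on the right the CgA-KO livers lie at 0.467 to 0.576 and the WT livers at 0.404 to 0.455.

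Of 24 other genes of BMP and SMAD control tested, 2 were called, both higher, where 8.60% of all genes were called higher, so the share is near the background. The median log2 fold change was 0.06. *Acvrl1*, the endothelial BMP receptor ALK1, was at 3.76, 1.11 and 1.27 CPM in WT replicates 1, 2 and 3, and at 11.7, 7.95 and 8.96 CPM in CgA-KO, a log2 fold change of 2.29 (SE 0.464, adjusted p = 0.0166 by edgeR's quasi-likelihood test). *Id3*, a BMP target of the same family as *Id1* and also a Kupffer cell gene, was at 16.9, 25.8 and 24.6 CPM in WT and 43.8, 41.6 and 37.7 CPM in CgA-KO, a log2 fold change of 0.86 (SE 0.198, adjusted p = 0.0246). Both separated the genotypes, where 33.6% of all genes tested did so. *Acvrl1* lost its call without WT replicate 2, WT replicate 3 or CgA-KO replicate 1 (adjusted p 0.0545 to 0.0823), and *Id3* without WT replicate 3, CgA-KO replicate 1 or CgA-KO replicate 2 (0.0549 to 0.0902). Kupffer and stellate cell markers moved with both and with *Id1*, as given above, and their part was not tested.

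The following genes were named after their values were seen, for their place on the route, and none was called. *Bmp2*, the second endothelial ligand, was at 9.35 to 13.1 CPM in WT and 6.02 to 6.85 CPM in CgA-KO livers, without overlap (log2 fold change -0.72, adjusted p = 0.0667 by edgeR's quasi-likelihood test). *Atoh8*, a BMP target that acts on *Hamp*, had a log2 fold change of 1.18 (adjusted p = 0.0886) and *Hjv*, the BMP co-receptor hemojuvelin, one of 0.23 (adjusted p = 0.461). *Tmprss6*, the protease that cleaves hemojuvelin, had -0.49 (adjusted p = 0.220).

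On the inflammatory route, 4 of 22 genes were called, all higher, where 8.60% of all genes were called higher. The median was 0.03. *Lcn2*, the siderophore-binding protein lipocalin 2, had the largest change, at 10.4, 9.61 and 13.3 CPM in WT replicates 1, 2 and 3 and 41.0, 126 and 125 CPM in CgA-KO. Its log2 fold change was 3.13 (SE 0.415, adjusted p = 0.00484 by edgeR's quasi-likelihood test), and it was called in all 15 alternatives. *Il1b*, the cytokine interleukin 1 beta, rose by 2.41 (adjusted p = 0.0149), *Orm2*, an acute-phase glycoprotein, by 2.09 (adjusted p = 0.0290) and *Socs3*, the feedback inhibitor of STAT3, by 1.26 (adjusted p = 0.0380). In *Socs3* CgA-KO replicate 2, the liver with the most *Hamp*, was highest at 34.6 CPM, against 15.3 and 16.8 CPM in the other CgA-KO livers and 7.65 to 10.6 CPM in WT. The serum amyloid genes of the same list, named after their values were seen, were lowest in that liver, *Saa1* at 37.0 CPM, *Saa2* at 17.3 CPM and *Saa3* at 3.58 CPM.

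*Il1b* lost its call without CgA-KO replicate 1 (adjusted p = 0.0518), *Socs3* without WT replicate 2, WT replicate 3 or CgA-KO replicate 2 (0.0737 to 0.131), and *Orm2* without any 1 library other than CgA-KO replicate 1 (0.0576 to 0.177). With limma-voom neither *Socs3* (0.0501) nor *Orm2* (0.0532) was called, and *Orm2* was not called with the filter on a total of at least 1 count (0.119). *Orm2* is close in sequence to *Orm1*, so its counts are uncertain. Neutrophil markers moved with this group: 4 of 7 tested were called higher, *S100a8*, *S100a9*, *Retnlg* and *Mmp8*. Leaving out WT replicate 3 left 0 calls, leaving out CgA-KO replicate 2 left 1, and leaving out WT replicate 2 left 2, as did limma-voom. *S100a8* and *S100a9* also lost their calls without WT replicate 1 (adjusted p = 0.0649 and 0.130). With the filter on 10 counts in every library, 4 markers were tested and 2 called, and *Retnlg* and *Mmp8* were not tested. Both had fewer than 10 counts in some library, so the main count may lean on markers that passed through the CgA-KO livers. All 12 summed to 8.30 to 14.6 CPM in WT and 53.0 to 390 CPM in CgA-KO livers, the highest in CgA-KO replicate 2, with none at 0 throughout. Their part and that of Kupffer cells, which also make *Il1b*, were not tested.

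Iron uptake was represented by the receptor pair and their ligand. *Tfrc*, at chr16:32608920-32632794 on the plus strand, encodes transferrin receptor 1, which brings transferrin-bound iron into cells. It was at 19.9, 18.7 and 17.6 CPM in WT replicates 1, 2 and 3, and at 43.1, 21.4 and 43.1 CPM in CgA-KO. CgA-KO replicates 1 and 3 were well above WT, and replicate 2 only just. The means were 18.8 ± 1.11 and 35.9 ± 12.5 CPM, 1.91-fold apart, with a log2 fold change of 0.94 (SE 0.266) that missed the threshold (adjusted p = 0.0523 by edgeR's quasi-likelihood test). It was called in 6 of 15 alternatives, among them DESeq2 (adjusted p = 0.0221) and the fit without CgA-KO replicate 2 (log2 fold change 1.24, adjusted p = 0.0159).

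*Tfrc* is also abundant in erythroid precursors. Of 9 erythroid markers tested, *Hba-a2*, an alpha globin, and *Slc4a1*, the band 3 protein, were called higher and *Alas2*, the erythroid enzyme of heme synthesis, lower. The 13 markers summed to 183 to 486 CPM in WT and 496 to 907 CPM in CgA-KO livers, with CgA-KO replicate 2 lowest of its group, as it was for *Tfrc*, and none was at 0 throughout. The part of blood cells was not tested. Calls of all 3 were lost without several single libraries, *Hba-a2* in 5 of 6 such fits (adjusted p 0.0734 to 0.127) and with the filter on 1 count in total (0.0525). *Slc4a1* was not tested with the filter on 10 counts in every library. *Hba-a2* shares sequence with *Hba-a1*.

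*Tfr2*, at chr5:137569840-137587481 on the plus strand, encodes the receptor with which hepatocytes sense transferrin. It was at 360, 334 and 360 CPM in WT replicates 1, 2 and 3, and at 247, 371 and 248 CPM in CgA-KO. CgA-KO replicates 1 and 3 were below WT and replicate 2 above, so the groups overlapped (log2 fold change -0.28, adjusted p = 0.466 by edgeR's quasi-likelihood test). The liver that was lowest for *Tfrc* in its group was thus the highest for *Tfr2* and for *Hamp*. *Trf*, at chr9:103204001-103230444 on the minus strand, encodes transferrin, the plasma iron carrier. It stayed between 9417 and 13685 CPM in WT and between 9712 and 15245 CPM in CgA-KO livers, with a log2 fold change of 0.13 (adjusted p = 0.838).

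*Fth1*, at chr19:9980598-9985098 on the plus strand, encodes ferritin heavy chain, which oxidises and stores iron. It was at 1256, 1888 and 1265 CPM in WT replicates 1, 2 and 3, and at 1201, 1379 and 1416 CPM in CgA-KO, which overlapped (log2 fold change -0.14, adjusted p = 0.769 by edgeR's quasi-likelihood test). The ferritin light chain *Ftl1* was at 2759, 4470 and 3129 CPM in WT and 2084, 2949 and 2793 CPM in CgA-KO, also not called (-0.40, adjusted p = 0.412). The ratio of *Fth1* to *Ftl1* in CPM was 0.455, 0.422 and 0.404 in WT and 0.576, 0.467 and 0.507 in CgA-KO, so every CgA-KO liver had more heavy chain mRNA for its light chain mRNA than any WT liver. No test was made of the ratio. The pseudogene row *Ftl1-ps1* held 350 to 1391 counts per library, so reads of *Ftl1* may be split.

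*Slc40a1*, at chr1:45908068-45926523 on the minus strand, encodes ferroportin, the only known exporter of cellular iron and the target of hepcidin. It was at 120, 169 and 169 CPM in WT replicates 1, 2 and 3, and at 272, 202 and 184 CPM in CgA-KO. All CgA-KO livers were above WT, although WT replicates 2 and 3 came close to CgA-KO replicate 3. The means of 153 ± 28.4 and 219 ± 46.4 CPM were 1.43-fold apart, and the log2 fold change of 0.52 (SE 0.240, 95% interval -0.02 to 1.07) was not called (adjusted p = 0.190 by edgeR's quasi-likelihood test). Ferroportin is a marker of Kupffer cells, whose other markers summed to 371, 187 and 171 CPM in WT and 2142, 2055 and 1523 CPM in CgA-KO replicates 1, 2 and 3. CgA-KO livers fell in the same order for both. WT livers did not, and the part of Kupffer cells was not tested.

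By the same likeness measure, *Slc40a1* ran closest to *Zfp784* (0.065), *Ptpn12* (0.11), *Atxn1l* (0.11), *Atf6b* (0.11) and *Catsper2* (0.12). None of these was called. The measure does not rescale genes, so a gene with a much larger change than *Slc40a1* could not be among them.

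**Figure D3:**
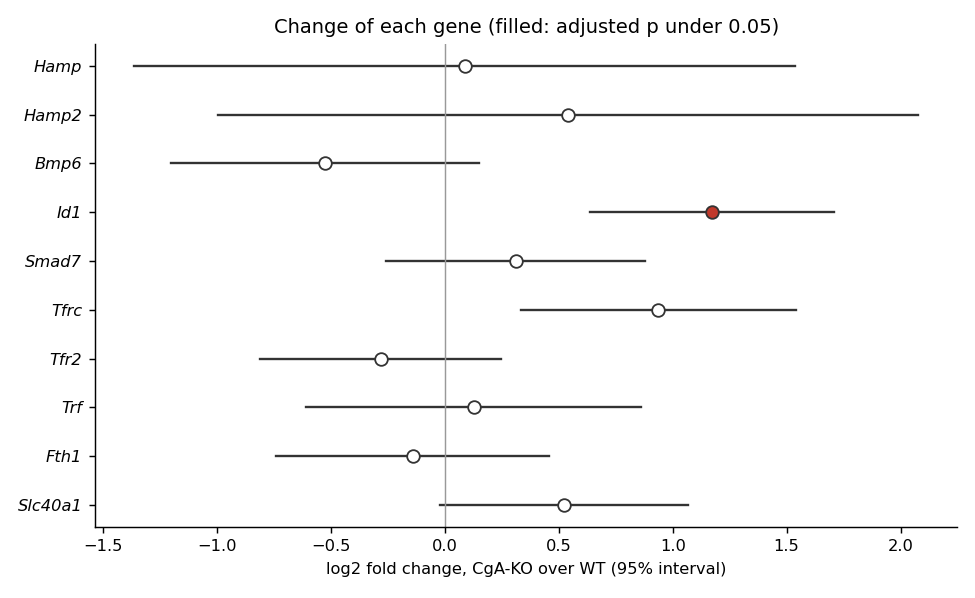
Log2 fold change of CgA-KO over WT (horizontal axis) for the 10 genes, with unadjusted 95% intervals as lines and the called gene filled. *Id1* alone is filled, at 1.17, the interval of *Tfrc* lies above 0 before adjustment, and those of *Hamp* and *Hamp2* are the widest.

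Among all genes tested, 8.60% were called higher and 3.84% lower. The other genes of iron import, reduction, storage and mitochondrial transport had a median of -0.08. With library size alone it was 0.19, or -0.07 relative to the median of all genes at that scaling. With TMM factors, 1 of 19 tested was called higher, *Lcn2*, and 1 lower. The lower one was *Slc25a37*, mitoferrin 1, which carries iron into mitochondria. It was at 77.8, 67.8 and 105 CPM in WT replicates 1, 2 and 3, and at 40.5, 33.5 and 44.1 CPM in CgA-KO. It fell 2.12-fold, by 1.08 on the log2 scale (SE 0.218, adjusted p = 0.0163 by edgeR's quasi-likelihood test), and lost its call without WT replicate 3, CgA-KO replicate 1 or CgA-KO replicate 2 (0.0635 to 0.0784) and with library size alone (0.0761). Of the 5 iron regulatory protein genes and their controls, none was called, with a median of -0.41. With library size alone the median was -0.13, or -0.39 relative to the median of all genes at that scaling, and 1 gene was called higher. Aconitase 1, the iron regulatory protein *Aco1*, was named after its values were seen, at 133 to 161 CPM in WT and 96.0 to 107 CPM in CgA-KO livers without overlap (log2 fold change -0.55, adjusted p = 0.0842).

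In heme handling 8 of 24 genes were called, 4 higher and 4 lower, with a median of -0.28, where 12.4% of all genes were called. The median was -0.01 with library size alone, or -0.27 relative to the median of all genes at that scaling. The counts depend on libraries and scaling: 1 was higher and 1 lower without WT replicate 3, 2 and 2 without either WT replicate 2 or CgA-KO replicate 2, 3 and 1 when CgA-KO replicate 1 was left out, and 4 and 2 with library size alone or upper-quartile factors. *Hmox1*, heme oxygenase 1, which breaks heme down and frees its iron, was at 14.8, 15.7 and 12.0 CPM in WT replicates 1, 2 and 3, and at 51.0, 83.7 and 72.3 CPM in CgA-KO. It was 4.89-fold higher, a log2 fold change of 2.29 (SE 0.230, adjusted p = 0.00281 by edgeR's quasi-likelihood test), and was called in all 15 alternatives. *Spic*, a transcription factor of heme-recycling macrophages that is also on the Kupffer list, rose by 2.63 (adjusted p = 0.00831). *Flvcr1*, a heme exporter, rose by 1.43 (adjusted p = 0.0163) and its relative *Flvcr2* by 1.31 (adjusted p = 0.0240). *Hmox1* and *Spic* are expressed in Kupffer cells, whose markers are given above, and their part was not tested.

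The genes that fell act in heme synthesis. *Abcb10*, a transporter of the inner mitochondrial membrane, was at 33.4, 43.7 and 38.8 CPM in WT replicates 1, 2 and 3, and at 15.7, 12.6 and 17.1 CPM in CgA-KO, 2.56-fold lower (log2 fold change -1.36, SE 0.190, adjusted p = 0.00545 by edgeR's quasi-likelihood test), and was called in all 15 alternatives. *Alas1*, the rate-limiting enzyme of heme synthesis in liver, was at 698, 441 and 965 CPM in WT and 259, 369 and 330 CPM in CgA-KO, 2.20-fold lower (adjusted p = 0.0474). *Alas2* and *Alad*, the enzyme of the next step, fell 2.13-fold (adjusted p = 0.0287) and 1.74-fold (adjusted p = 0.0470); *Alad* was named after its values were seen. All 3 enzymes lay lower in each CgA-KO liver than in any WT liver, where 33.6% of all genes tested did not overlap. They were picked as called genes, so this adds nothing to their calls.

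The heme calls other than *Hmox1* and *Abcb10* each failed without some single library. *Spic* failed without WT replicate 3 (0.0531), *Flvcr2* without WT replicate 2, WT replicate 3 or CgA-KO replicate 2 (0.0501 to 0.104), and *Flvcr1* and *Alas2* without those or CgA-KO replicate 1 (0.0511 to 0.0837 and 0.0737 to 0.115). *Alad* failed without WT replicate 2, WT replicate 3, CgA-KO replicate 1 or CgA-KO replicate 3 (0.108 to 0.177), and *Alas1* without any library other than WT replicate 2 (0.0676 to 0.193). *Alas1* and *Alad* were also not called with library size alone (0.130 and 0.139), with upper-quartile factors (0.0602 and 0.0572) or with the filter on 10 counts in every library (0.0534 and 0.0518).

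**Figure D4:**
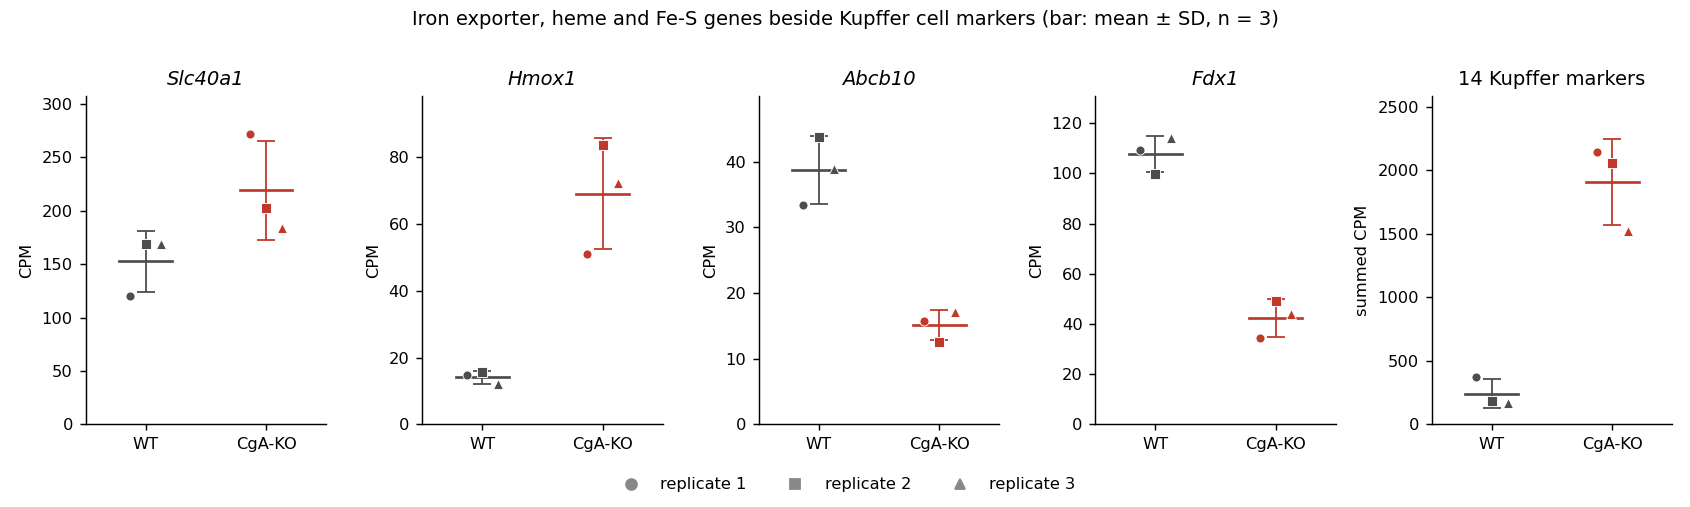
CPM of *Slc40a1*, *Hmox1*, *Abcb10* and *Fdx1* and the summed CPM of 14 Kupffer cell markers (vertical axes, from 0) in 3 WT (grey) and 3 CgA-KO (red) livers, with bars for the mean ± SD. The genotypes do not overlap in any panel, and did not in 33.6% of all genes tested. *Slc40a1* is the closest at 169 against 184 CPM, and *Abcb10* and *Fdx1* lie lower in CgA-KO livers.

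Of the iron-sulfur cluster genes, which use mitochondrial iron, all 22 tested had negative log2 fold changes, from -1.34 to -0.03 with a median of -0.22. Of these, 2 were called, both lower, where 3.84% of all genes were called lower and 12.4% in either direction. Hepatocyte markers had a median of -0.17, given above with its dependence on scaling, and the lists were not compared by a test. *Fdx1*, ferredoxin 1, was at 109, 99.8 and 114 CPM in WT replicates 1, 2 and 3, and at 34.3, 49.1 and 43.9 CPM in CgA-KO, 2.53-fold lower (log2 fold change -1.34, SE 0.197, adjusted p = 0.00599 by edgeR's quasi-likelihood test), and was called in all 15 alternatives. *Fdx2* fell 1.80-fold (adjusted p = 0.0302) and lost its call without any library other than WT replicate 1 (0.0685 to 0.148) and with library size alone (0.138). The common sign depends on scaling: with library size alone, which moved the median of all genes from -0.01 to 0.26, only 10 of the 22 were below 0, though all 22 stayed below that median. These genes were not tested as a set.

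Over the 6 pathway lists, 17 of 115 genes were called, 10 higher and 7 lower, with a median of -0.09, where 12.4% of all genes were called. The split was 15 higher and 3 lower with library size alone and 11 higher and 14 lower with DESeq2. Without a single library the number called was 5 to 19, lowest without WT replicate 3, and it was 10, 9 and 8 without WT replicate 2, CgA-KO replicate 1 and CgA-KO replicate 2.

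**Figure D5:**
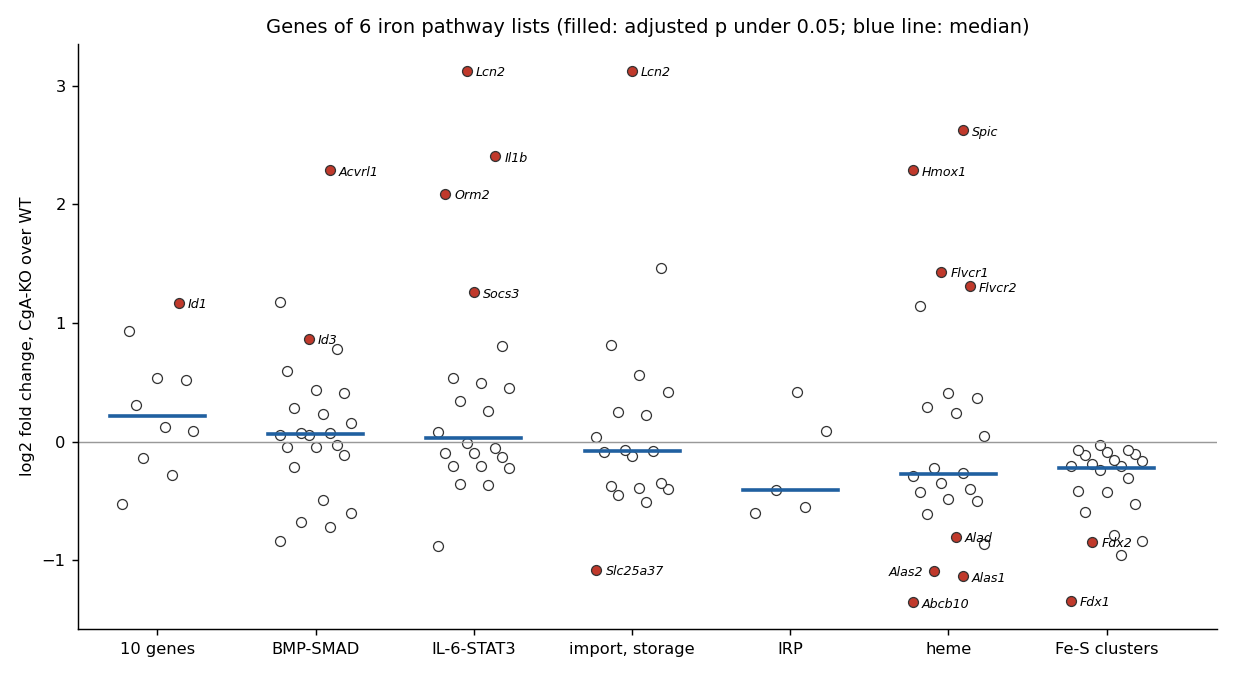
Log2 fold change of CgA-KO over WT (vertical axis) for the 10 genes and for the tested genes of 6 iron pathway lists, with called genes filled and named and a blue line for the median. Called genes lie on both sides of 0 in the heme list, above it for the BMP-SMAD and IL-6-STAT3 lists and below it for iron-sulfur clusters.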

How the data were processed

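Poly(A)-selected liver libraries came from 3 WT mice and 3 CgA-KO mice. The deposited values are raw counts per gene symbol, whole numbers without normalization. Per the paper's methods and the submitters' processing notes, the authors quantified reads at the transcript level with Salmon 1.4.0 against GRCm38; how transcripts were summed to genes, the annotation release and strand use are not given in the sources used here, so near copies can share reads. All columns mapped to a sample. Replicates differed by more than sampling noise, and each library was kept as 1 sample. The edgeR p-values set the genotype difference against the spread between 3 mice per genotype, moderated over all genes tested.

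The genotypes were compared by edgeR 4.0.16 (R 4.3.3): filterByExpr with a minimum count of 10 (13867 of 32212 rows kept), TMM factors, robust quasi-likelihood fits, a two-sided test of genotype without a block, and Benjamini-Hochberg adjustment over all genes tested. An SE is the absolute log2 fold change over the root of the F statistic. In likeness, log2 CPM used a prior count of 2. Depth set the lowest visible level, 3 counts, at 0.0951 to 0.269 CPM per library on the TMM-corrected scale, for counting error only. Replicate numbers were checked for pairing by the correlation of deviations from group means, which was 0.20, 0.01 and -0.07. The methods describe no pairing, and same-numbered mice were not treated as pairs.

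The 10 genes, the lists, tests and alternatives were chosen with earlier results of these data known. Named genes were the 10 genes, up to 6 called genes per list with at least 1 CPM and the largest change, rows named after a member, and the 5 genes most like *Hamp* and *Slc40a1*. List counts leave out the 10 genes. Alternatives were DESeq2 1.42.0, limma-voom (limma 3.58.1), upper-quartile factors, library size alone, filters that kept rows with 10 or more counts in every library or with 1 or more counts in total, a replicate block, repeated symbols summed, an adjusted p under 0.01, and fits without each library; DESeq2 on rows with 1 or more counts in total was added once the data had been seen. Only edgeR, DESeq2 and limma-voom with the main filter were tried on simulated data, and the other alternatives were not. Promoters are RefSeq's (GRCm38.p6), and gene coordinates and mRNAs are from GENCODE M21. Plots used matplotlib 3.10.9 and Python 3.11.15.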

Additional observations from a re-analysis of the deposited data

How the results depend on the processing

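Of the 10 genes, 1 was called as reported, *Id1*. The count was 2 with DESeq2, with DESeq2 on rows with a total of at least 1 count, with upper-quartile factors and with the filter on a total of at least 1 count, 3 with library size alone and 0 at an adjusted p under 0.01. It was 0 to 2 in fits without 1 library. *Tfrc* was the gene added each time, and *Slc40a1* came with it at library size alone (log2 fold change 0.81, or 0.55 over the shifted median of all genes, adjusted p = 0.0466). Directions turned in 3 genes that were never called. *Hamp* ran from -0.84 to 0.45 in fits without 1 library (-0.30 without WT replicate 1). *Trf* ran from -0.032 to 0.30, negative without CgA-KO replicate 2. *Fth1* ran from -0.25 to 0.077, positive without WT replicate 2, and was 0.16 with library size alone, or -0.10 over the shifted median. The other 7 genes kept their direction wherever they were tested; *Hamp2* was not tested at 10 counts in every library.

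Over all genes 1726 were called, 1193 higher and 533 lower (1293 and 200 with library size alone), against 2601 with DESeq2, 2592 with DESeq2 on rows with a total of at least 1 count and 360 at an adjusted p under 0.01. Fits without 1 library called 394 to 2126, with 841, 394, 744 and 976 without WT replicate 2, WT replicate 3, CgA-KO replicate 1 and CgA-KO replicate 2. Of the pathway genes 17 were called, 10 higher and 7 lower (15 and 3 with library size alone, 11 and 14 with DESeq2), against 5 at an adjusted p under 0.01 and 5 to 19 without 1 library. The cause of these changes was not tested, beyond the stricter threshold and the fewer samples themselves. With the replicate block, the counts were 1498 for all genes, 1 for the 10 genes and 13 for the pathway genes. It ended the calls of *Socs3* (adjusted p = 0.0853), *Orm2* (0.0966), *Alas1* (0.0754), *Fdx2* (0.0524), *Hba-a2* (0.0631), *Slc4a1* (0.0758) and the stellate marker *Ngfr* (0.0686), and of no other gene named as called. Replicate numbers were not treated as pairs of mice. Same-numbered livers did not all deviate together, a check that is too weak with 3 livers per genotype to decide on pairing. With 10558616 counts, WT replicate 1 was the shallowest, and *Hamp2* rested on 5 counts there.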
